A study of Homo sapiens with 18 samples.

Results

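The MAGE family of cancer-testis antigens and PRAME were followed in human prostate cancer cell lines in which galectin-4, a galactoside-binding lectin encoded by LGALS4, was induced or knocked down. The genes are MAGEC1, MAGEC2, MAGEA1, MAGEA3, MAGEA4, MAGEA6, MAGEA10, MAGEA12, MAGEB2 and PRAME, 10 of the 20041 genes that have a name on the expression array. They were chosen by symbol, with the levels and changes on these same arrays already known, and every one of their 22 probes is described. Because their levels and changes were part of the choice, their values are a description, and no p-value of a single member is given. Where a member is said to pass or not to pass the threshold of the fit over all genes, that too describes these arrays and is no independent test. The 18 arrays form 6 groups of 3. Cells of the 22Rv1 line that carry a tet-operator galectin-4 construct (22Rv1-tetO-Gal4) were profiled with Dox, which the labels describe as galectin-4 expressing, and without Dox as controls. LNCaP cells with the same kind of construct (LNCaP-tetO-Gal4) were profiled with Dox and without it in the same way. Cells of the 22Rv1-M4 line, called M4 here, were profiled after knockdown of galectin-4 (shGal4) and after a scramble knockdown (shCtrl). The uninduced controls therefore carry the construct too, and no group had Dox without a construct. Both 22Rv1 and LNCaP are established androgen receptor expressing prostate cancer lines, and the line names point to M4 as a 22Rv1 subline. How M4 was made, whether the engineered lines are single clones and the dose and time of Dox are not stated by the labels.

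MAGE genes of type I (the A, B and C families) lie on the X chromosome, are normally transcribed in male germ cells, and are switched back on in many tumours, usually where their promoters have lost DNA methylation. Their proteins share the MAGE homology domain, through which they bind RING-type ubiquitin ligases: MAGEA3, MAGEA6 and MAGEC2 bind TRIM28, and MAGEA3 and MAGEA6 direct it to the energy-sensing kinase AMPK. PRAME, on chromosome 22, is a leucine-rich repeat protein that serves as a substrate receptor of a CUL2 ubiquitin ligase and can repress retinoic acid receptor signalling. Peptides of these proteins are presented to T cells, which makes them targets of tumour immunotherapy.

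The promoters of MAGEC2, MAGEC1, MAGEA3 and MAGEA12 are printed as those of a pair of neighbouring MAGE-C genes that were not detected in the same groups, and of a trio of MAGE-A genes that were detected on every array (the promoter of MAGEA6 is identical to that of MAGEA3). Each runs 5′ to 3′ on the strand of its gene, with CpG dinucleotides, the sites of DNA methylation, in capitals. They come from RefSeq for GRCh38.p14 and cover 250 bases before to 50 after the transcription start, at chrX:142205241-142205540 (minus strand) for MAGEC2, chrX:141903644-141903943 (plus strand) for MAGEC1, chrX:152698544-152698843 (plus strand) for MAGEA3 and chrX:152733612-152733911 (plus strand) for MAGEA12. MAGEA12 has 2 listed starts, of which the one most alike to the MAGEA3 promoter is shown.
MAGEC2: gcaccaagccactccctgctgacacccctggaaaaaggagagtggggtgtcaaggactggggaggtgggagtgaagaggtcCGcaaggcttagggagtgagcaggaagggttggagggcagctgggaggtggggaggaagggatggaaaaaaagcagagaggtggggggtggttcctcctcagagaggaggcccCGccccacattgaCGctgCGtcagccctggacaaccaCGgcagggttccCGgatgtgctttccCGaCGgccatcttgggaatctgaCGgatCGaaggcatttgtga
MAGEC1: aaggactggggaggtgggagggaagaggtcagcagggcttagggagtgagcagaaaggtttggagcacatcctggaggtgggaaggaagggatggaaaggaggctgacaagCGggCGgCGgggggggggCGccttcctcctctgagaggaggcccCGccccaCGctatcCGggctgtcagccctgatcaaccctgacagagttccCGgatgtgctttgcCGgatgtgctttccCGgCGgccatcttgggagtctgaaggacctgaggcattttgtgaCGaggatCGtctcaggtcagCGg
MAGEA3: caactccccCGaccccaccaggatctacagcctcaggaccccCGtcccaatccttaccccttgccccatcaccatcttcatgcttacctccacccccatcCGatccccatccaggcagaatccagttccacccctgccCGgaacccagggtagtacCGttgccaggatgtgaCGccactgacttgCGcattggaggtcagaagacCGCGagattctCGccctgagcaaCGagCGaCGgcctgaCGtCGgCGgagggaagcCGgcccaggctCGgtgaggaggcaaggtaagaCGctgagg
MAGEA12: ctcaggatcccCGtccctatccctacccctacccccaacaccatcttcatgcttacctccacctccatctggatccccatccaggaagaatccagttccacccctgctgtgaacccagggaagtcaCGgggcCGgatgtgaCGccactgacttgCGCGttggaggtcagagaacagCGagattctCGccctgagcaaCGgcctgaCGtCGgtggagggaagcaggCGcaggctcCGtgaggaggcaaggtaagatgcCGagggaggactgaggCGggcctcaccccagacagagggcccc

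The promoter of MAGEA6, at chrX:152769640-152769939 on the minus strand, is letter for letter that of MAGEA3: all 300 bases are identical. The MAGEA12 promoter matches both over 236 positions of a 339-position alignment (69.6%). MAGEC1 and MAGEC2 match over 213 of 354 positions (60.2%). MAGEA3 and MAGEA6 hold 19 CpG each, MAGEA12 15, MAGEC1 14 and MAGEC2 10, against a median of 14 over 35116 promoters of this length. RefSeq promoters were given for 8 of the 10 genes, with 15 starts in all. MAGEA4 has 5 starts and PRAME 3, and the first listed was taken for each gene except MAGEA12. The letters CCGGAA, a core of ETS-family binding sites, occur on either strand in the promoters of MAGEA3, MAGEA6 and PRAME, 3 of the 8, and in 17.2% of all promoters. The variant CCGGAT, which shares no occurrence with it, occurs in MAGEC1 (3 times), MAGEC2, MAGEA12, MAGEA4 and MAGEB2, 5 of the 8, and in 7.12% of all promoters. Both motifs were chosen after the sequences were seen, and a match is a description of letters, not a bound site.

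Expression was measured as biotin-labelled cRNA on Illumina bead arrays of 47303 probes. Levels are log2 intensities after background correction and quantile normalization, and a probe counts as detected on an array where its detection p-value is under 0.05. Mean intensity was 306 to 404 per array and 41.9% to 45.1% of probes were detected. Probes at the limit of detection lie at 4.67 to 4.75 log2, so a level below that is only a bound, and the number of arrays limits the precision. Levels are compared between groups for the same probe, never between probes. The labels do not say that the 3 arrays of a group came from separate cultures, so the spread between them may be technical. LGALS4, the targeted gene, was read by 1 probe. It stood at 5.32, 4.79 and 4.87 log2 in M4 shGal4 arrays, against 12.41, 12.46 and 12.46 in M4 shCtrl arrays, a change of -7.45 ± 0.21 (SE). In LNCaP it was detected on 3 of 3 arrays with Dox (5.73, 6.79 and 6.96) and on 0 of 3 without (4.53, 4.64 and 4.57), at least 3.41-fold higher with Dox. In 22Rv1 it was 5.84, 5.68 and 6.00 on the arrays labelled Dox, against 5.91, 5.96 and 5.84 on those without, a difference of -0.06 ± 0.21 (adjusted p = 0.874, limma), so the label was not borne out on this probe and these arrays are called "labelled Dox" throughout. Whether the probe lies within the construct's transcript was not tested. Of 8 prostate luminal markers on the array, 6 to 8 were detected on all 3 arrays of each group. KLK3, which encodes prostate-specific antigen, was detected on all LNCaP arrays and on none of 22Rv1 or M4. Of 26 testis germ cell markers, 18 to 22 were detected on no array of a group, including DDX4, DAZL and the protamines PRM1 and PRM2.

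Detection separated genes found everywhere from genes found in some lines only. MAGEA1, MAGEA3, MAGEA4, MAGEA6, MAGEA12 and PRAME were detected on all 18 arrays. MAGEC2 was detected on all 12 LNCaP and M4 arrays and on none of the 6 of 22Rv1. MAGEA10 was detected on the 6 LNCaP arrays only. MAGEC1 reached detection on the 3 LNCaP arrays without Dox and on 1 of the 22Rv1 arrays labelled Dox. MAGEB2 was not well above background on any of the 18 arrays with either of its 2 probes, which lay at 4.21 to 4.66 log2, and it was not tested. In all, 9 genes passed the filter of detection on at least 3 of 18 arrays and were tested among 13680 genes, each by its brightest detected probe. MAGEA10 passed only through LNCaP arrays, MAGEC1 through LNCaP arrays and 1 of 22Rv1, and MAGEC2 through LNCaP and M4 arrays, so for these the filter itself required a difference between lines.

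**Figure D1:**
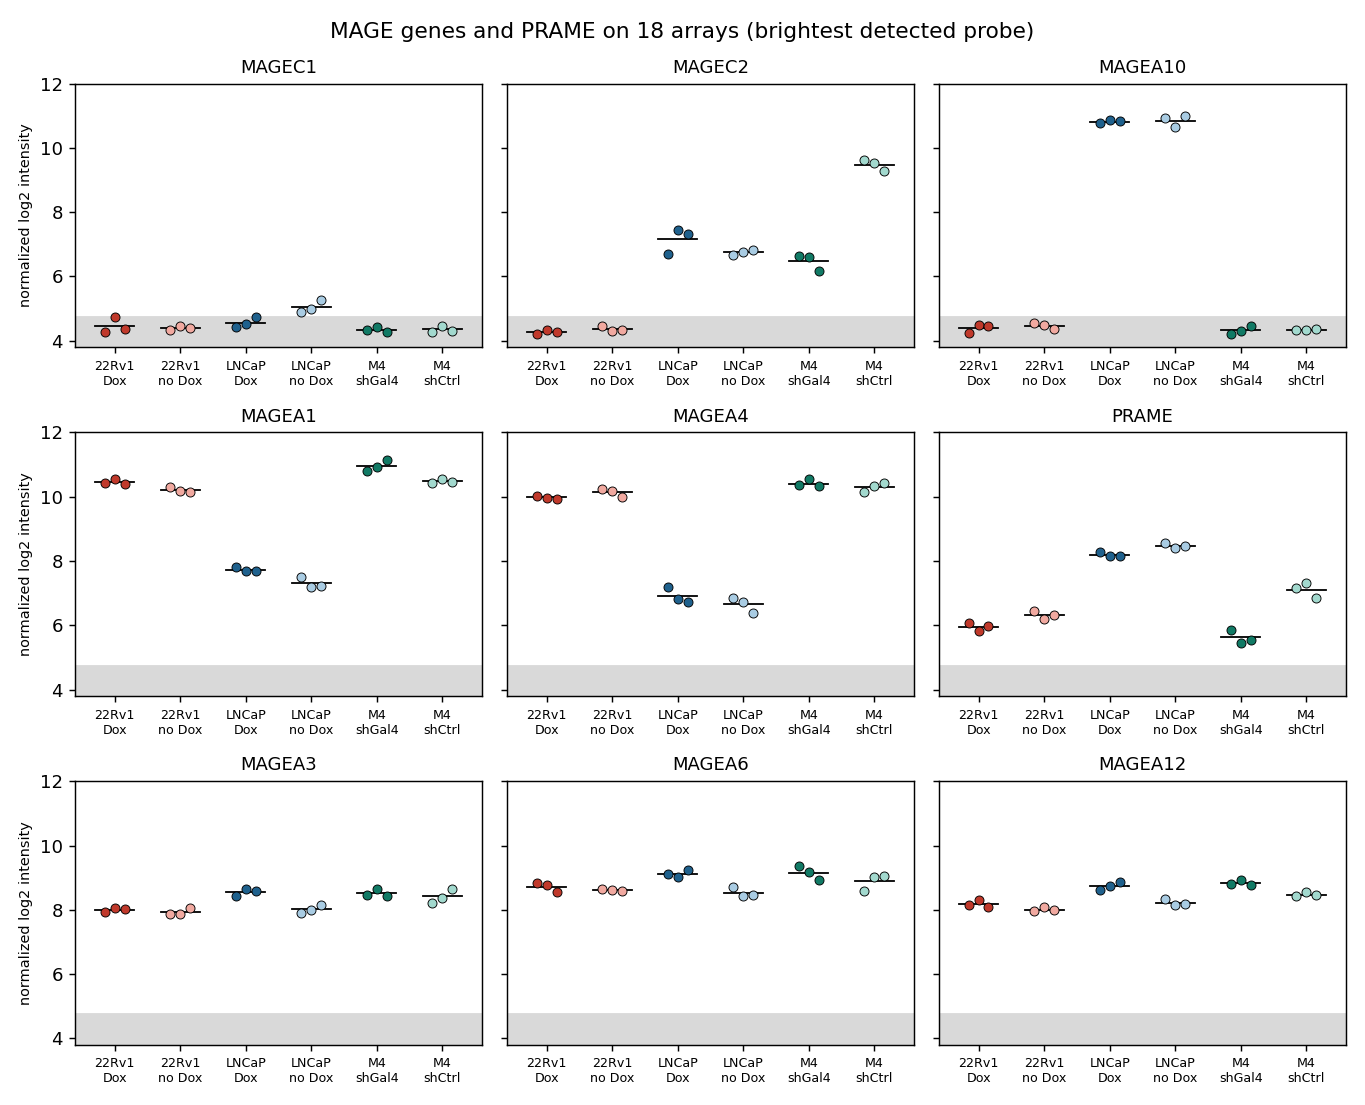
Normalized log2 intensity (vertical axis) of the 9 tested genes by group (horizontal axis), with the Dox or shGal4 group left of its control. Points are single arrays, bars are means of 3 arrays, and the grey band marks levels below the highest of the arrays' detection limits (4.75 log2). MAGEC2 was highest in M4 shCtrl at 9.28 to 9.62 and in the band in 22Rv1, while MAGEA10 was outside the band in LNCaP only.

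MAGEC2 was the member with the widest response to the knockdown. It encodes a MAGE-C protein that activates TRIM28 as a ubiquitin ligase. Its brighter probe gave 6.65, 6.59 and 6.18 log2 in M4 shGal4, against 9.62, 9.54 and 9.28 in M4 shCtrl, with no overlap of the arrays. The change was -3.01 ± 0.17 (SE), 8.05-fold lower after knockdown. The dimmer probe was detected on 0 of 3 shGal4 arrays, against 3 of 3 shCtrl arrays at 6.56, 6.84 and 6.68, at least 3.90-fold lower. In the scramble control, M4 shCtrl, MAGEC2 stood far above 22Rv1 without Dox, where neither probe was detected on any array. M4 shCtrl had a scramble knockdown and 22Rv1 without Dox the tetO construct. In every comparison of these groups, line and handling therefore cannot be told apart. The bright probe was at least 27.7-fold higher in M4 shCtrl than in 22Rv1 without Dox, and the dim probe at least 4.01-fold. After knockdown MAGEC2 was still detected on all 3 M4 arrays with the bright probe, and in bulk RNA fewer cells with a transcript and less transcript per cell cannot be told apart. Some markers of other cell types also changed in M4, and some of these changed where MAGEC2 was not detected. DCN, a matrix proteoglycan of fibroblasts, was detected on 0 of 3 arrays of M4 shGal4, against 3 of 3 of M4 shCtrl, at least 2.68-fold lower after knockdown. CD68, a lysosomal protein of macrophages, fell by 1.11 log2 with the knockdown. In M4 shCtrl over 22Rv1 without Dox, DCN was at least 2.76-fold higher, and LUM, another matrix proteoglycan, rose by 0.85 and CD68 by 1.48 log2. LUM did not pass with the knockdown. On the 22Rv1 arrays labelled Dox, where MAGEC2 was not detected, CD68 was 2.05 and LUM 1.38 log2 higher than without Dox. Over the lists, 3 fibroblast and 4 leukocyte markers were tested, of which 1 each fell with the knockdown, where 10.3% of all genes fell. Summed fibroblast marker intensity was 799.6 to 843.1 in M4 shGal4, against 858.4 to 893 in M4 shCtrl and 823.1 to 840.9 in 22Rv1 without Dox. It was 856.4 to 974.2 on the 22Rv1 arrays labelled Dox. Summed leukocyte marker intensity was 1244.1 to 1461.7 in M4 shGal4, against 1506.2 to 2795.1 in M4 shCtrl and 1319.7 to 1390.7 in 22Rv1 without Dox. It was 2137.8 to 3774.7 on the 22Rv1 arrays labelled Dox. COL3A1, PDGFRB and FAP of fibroblasts and PTPRC, CD3D and CD3E of leukocytes were detected on no M4 array. Of 2 erythroid markers tested, HBA1 rose by 0.71 with the knockdown, and of 3 endothelial and 1 melanocyte markers tested none passed there. The part of these markers in the MAGEC2 values was not tested. LNCaP cells held MAGEC2 between these levels. The bright probe gave 6.69, 7.45 and 7.32 with Dox, against 6.67, 6.75 and 6.81 without, and the arrays overlapped (0.41 ± 0.17). LNCaP without Dox was at least 4.16-fold above 22Rv1 without Dox. In order of group means the levels ran M4 shCtrl 9.48, LNCaP with Dox 7.15, LNCaP without Dox 6.74, M4 shGal4 6.47, and both 22Rv1 groups not detected. Only the 2 LNCaP groups overlapped among the detected neighbours in this order, and the 22Rv1 groups have no order because both lie below detection.

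MAGEC1, the larger MAGE-C protein also known as CT7, was near the detection limit wherever it was seen. Its brighter probe gave 4.43, 4.52 and 4.72 in LNCaP with Dox, detected on 0 of 3 arrays, against 4.89, 5.00 and 5.28 without Dox, detected on 3 of 3. That is at least 1.26-fold lower with Dox. LNCaP without Dox was at least 1.29-fold above 22Rv1 without Dox. The other MAGEC1 probe was detected on none of the 18 arrays. In M4 neither MAGEC1 probe was detected, in shGal4 or in shCtrl. MAGEC2, the gene next to MAGEC1 among those tested on the X chromosome, was detected in both. It averaged 9.48 log2 in M4 shCtrl, its highest group, and 6.47 in M4 shGal4. Of the tested genes nearest to MAGEC2 on the chromosome, which were named after their values were seen, SLITRK4, a synaptic membrane protein, fell with the knockdown (-0.95, adjusted p = 4.11e-06, limma), and it was higher in M4 shCtrl than in 22Rv1 without Dox (1.40, adjusted p = 1.33e-08). These comparisons share the M4 shCtrl arrays. In LNCaP without Dox SLITRK4 was lower than in 22Rv1 without Dox (-0.39, adjusted p = 0.00905), where MAGEC2 was higher. UBE2NL was higher in M4 shCtrl than in 22Rv1 (0.68, adjusted p = 0.00283), and SPANXN3 (3.45) and LDOC1 (0.59) were higher in LNCaP than in 22Rv1. SPANXB1, LDOC1 and SPANXN3 had an adjusted p of 0.154 or more for the knockdown, and UBE2NL had 0.124.

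MAGEA10 divided the lines. It gave 10.76, 10.86 and 10.82 in LNCaP with Dox and 10.92, 10.64 and 10.99 without (a change of -0.03 ± 0.12), and it was not detected on any of the 12 arrays of 22Rv1 and M4. LNCaP without Dox was at least 71.4-fold above 22Rv1 without Dox. The second probe, assigned to another transcript, was dim: it gave 5.29, 5.26 and 5.53 in LNCaP with Dox, detected on 3 of 3 arrays, against 4.37, 4.83 and 4.55 without, detected on 1 of 3. The probes of this gene therefore disagreed on Dox, with a change of 0.78 ± 0.12 on the dim probe.

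MAGEA1 and MAGEA4 ran opposite to MAGEA10 between the lines. MAGEA1, the first human tumour antigen defined by T cells, gave 7.49, 7.20 and 7.21 in LNCaP without Dox, against 10.29, 10.18 and 10.14 in 22Rv1 without Dox. That is -2.90 ± 0.12, or 7.48-fold lower in LNCaP, with a change of -1.51 ± 0.14 on the second probe. MAGEA4, an antigen used as a target of engineered T cells, gave 6.83, 6.72 and 6.38 in LNCaP and 10.25, 10.19 and 9.98 in 22Rv1, both without Dox. That is -3.49 ± 0.14, or 11.3-fold lower in LNCaP, with -2.58 ± 0.18 on the second probe. Both genes were high on all arrays of 22Rv1 and M4 and low but detected on all arrays of LNCaP. Whether transcripts of related MAGE-A genes added to these LNCaP values was not tested. Within M4, MAGEA1 gave 10.81, 10.93 and 11.15 in shGal4 and 10.43, 10.54 and 10.46 in shCtrl, without overlap (0.49 ± 0.12, with 0.53 ± 0.14 on the second probe). MAGEA4 overlapped between the M4 groups (0.11 ± 0.14). On its second probe, assigned to another transcript, MAGEA4 gave 8.13, 8.19 and 8.59 on the 22Rv1 arrays labelled Dox, against 7.75, 7.83 and 7.91 without, while the bright probe gave -0.16 ± 0.14 with overlapping arrays. The probes of MAGEA4 disagreed in sign here.

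MAGEA3, MAGEA6 and MAGEA12, the closely related genes of the distal X chromosome whose promoters were compared above, were detected everywhere and varied little: the 6 group means of their bright probes spanned 0.62, 0.61 and 0.83 log2. With Dox in LNCaP all 3 were higher without overlap. MAGEA3 gave 8.44, 8.65 and 8.57 with Dox, against 7.91, 8.00 and 8.14 without (0.54 ± 0.13). MAGEA6 gave 9.11, 9.01 and 9.24 with Dox, against 8.70, 8.44 and 8.47 without (0.58 ± 0.15). MAGEA12 gave 8.63, 8.74 and 8.85 with Dox, against 8.35, 8.15 and 8.18 without (0.51 ± 0.11). In LNCaP these are folds of 1.43 to 1.50, and MAGEA1 was 1.34-fold higher with Dox on its bright probe. Genes this closely related can be read by each other's probes. The probe sequences were not used here, so how far the MAGEA3, MAGEA6 and MAGEA12 values are separate measurements is uncertain. Their probes did not all behave alike. The second MAGEA3 probe was dim, at 4.58 to 5.77 log2 over the 18 arrays, and overlapped between the groups in all 5 comparisons. With Dox the third MAGEA6 probe moved further than the other 2 in both lines: 7.42, 7.79 and 7.75 in LNCaP with Dox, against 6.39, 6.69 and 6.50 without (1.12 ± 0.18), and 7.51, 7.29 and 7.57 on the 22Rv1 arrays labelled Dox, against 6.80, 7.11 and 6.90 without (0.52 ± 0.18). Its arrays did not overlap in either line. The second MAGEA12 probe gave 6.90, 7.17 and 7.15 in LNCaP with Dox, against 6.20, 6.44 and 6.13 without (0.82 ± 0.15). That probe, too, was higher on every array with Dox. In the knockdown, MAGEA12 gave 8.82, 8.92 and 8.78 in M4 shGal4, against 8.42, 8.55 and 8.45 in M4 shCtrl (0.36 ± 0.11), while MAGEA3 (0.10 ± 0.13) and MAGEA6 (0.26 ± 0.15) overlapped. Between M4 shCtrl and 22Rv1 without Dox, MAGEA3 differed by 0.48 ± 0.13 and MAGEA12 by 0.47 ± 0.11 without overlap, and MAGEA6 by 0.26 ± 0.15 with overlap.

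PRAME graded across the groups and was the other member to fall with the knockdown. Its bright probe gave 5.86, 5.46 and 5.55 log2 in M4 shGal4, against 7.15, 7.31 and 6.85 in M4 shCtrl, a change of -1.48 ± 0.14 or 2.79-fold lower. The second probe, detected on 2 of 3 shGal4 arrays, changed by -1.02 ± 0.16, also without overlap. Both detected probes thus put every shGal4 array below every shCtrl array. M4 shCtrl was 0.78 ± 0.14 above 22Rv1 without Dox on the bright probe without overlap, and 0.30 ± 0.16 on the second with overlap. LNCaP was the highest line, with 8.55, 8.41 and 8.47 without Dox, against 6.45, 6.19 and 6.33 in 22Rv1 without Dox (2.16 ± 0.14, 4.46-fold higher). The order of group means was LNCaP without Dox 8.48, LNCaP with Dox 8.19, M4 shCtrl 7.10, 22Rv1 without Dox 6.32, 22Rv1 labelled Dox 5.96 and M4 shGal4 5.62, and only the last 2 overlapped as neighbours. With Dox the bright probe gave 8.27, 8.14 and 8.15 in LNCaP, against the values above without Dox (-0.29 ± 0.14). It gave 6.06, 5.83 and 5.99 on the 22Rv1 arrays labelled Dox, against the values above without Dox (-0.37 ± 0.14). In both lines the arrays did not overlap and the change did not pass the threshold. The second probe was lower without overlap in 22Rv1 labelled Dox (-0.50 ± 0.16) and overlapped in LNCaP (0.09 ± 0.16). The third PRAME probe, assigned to another transcript, was detected on no array.

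**Figure D2:**
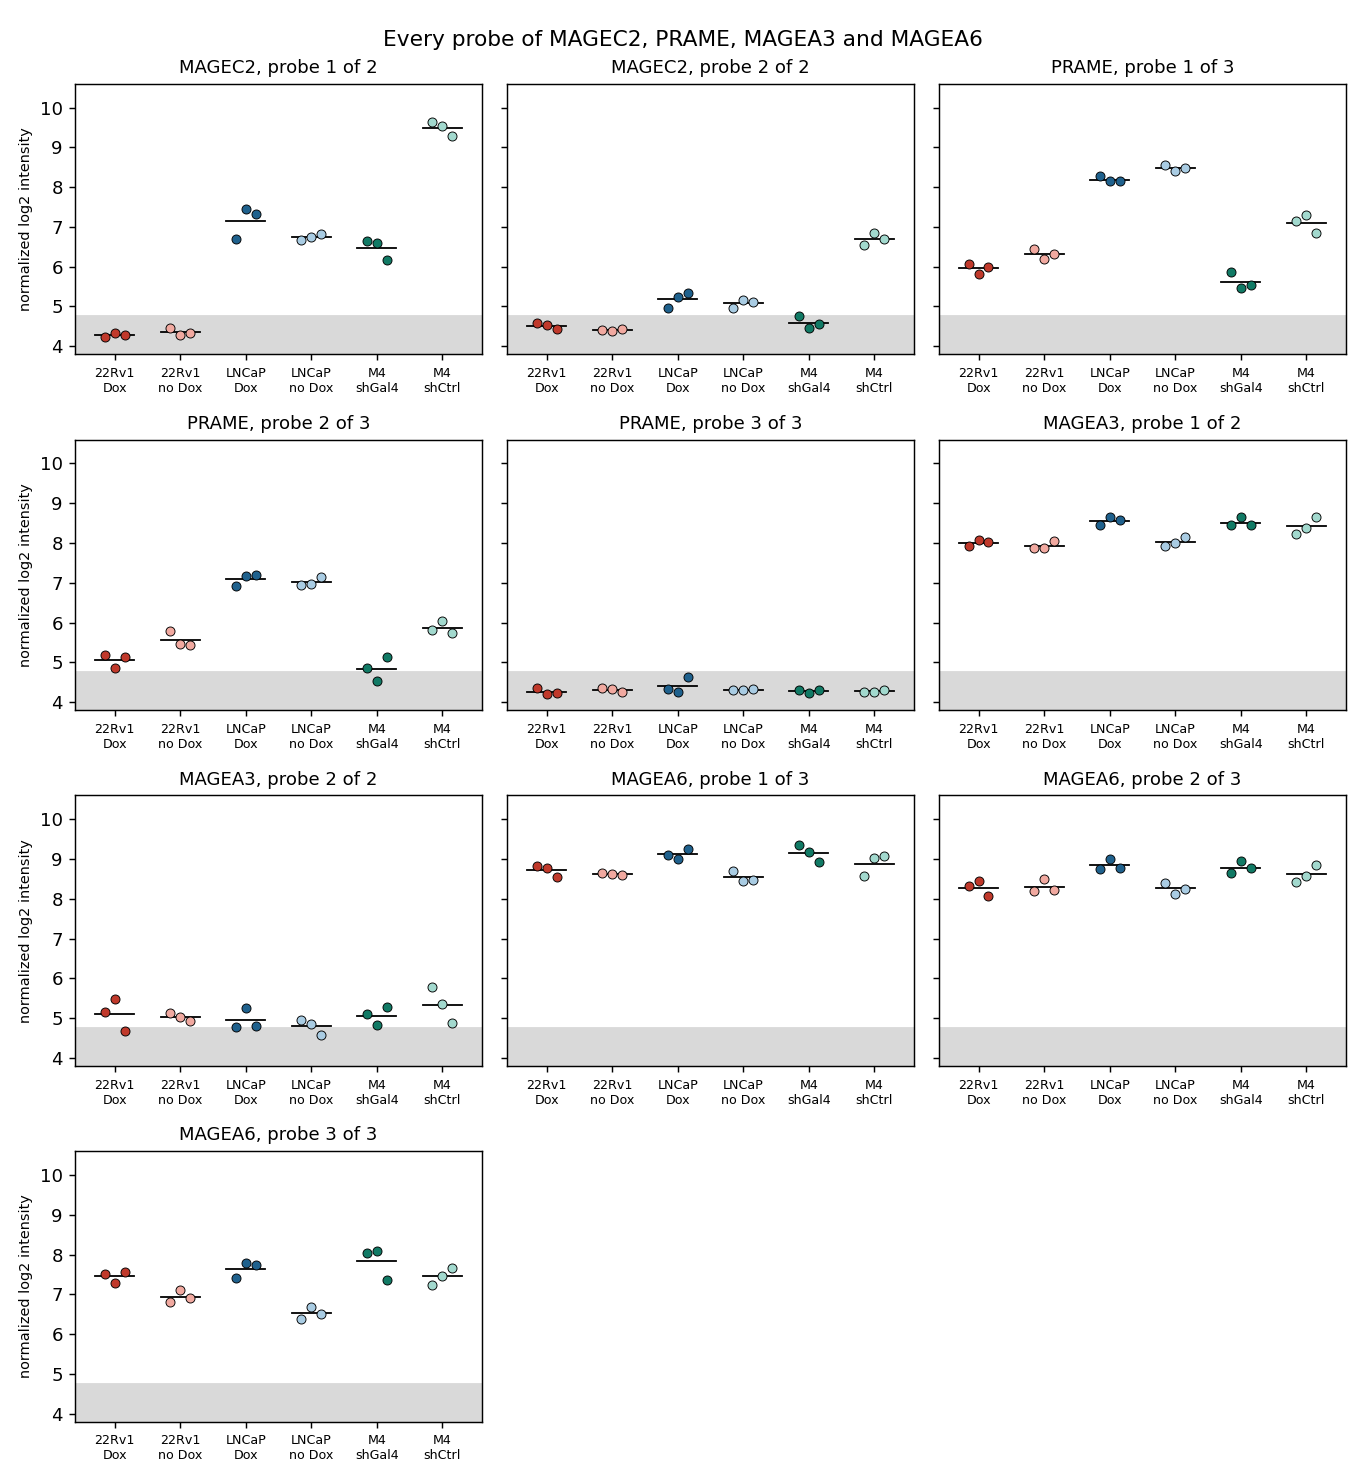
Normalized log2 intensity (vertical axis) on every probe of MAGEC2, PRAME, MAGEA3 and MAGEA6 by group (horizontal axis), 1 panel per probe. Points are arrays, bars are means of 3 arrays and grey marks levels below 4.75 log2. Both MAGEC2 probes and 2 of the 3 PRAME probes were lower in M4 shGal4 than in M4 shCtrl without overlap, while the dim MAGEA3 probe overlapped between those groups.

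Counted over the 9 tested genes, the comparisons differed in how many passed an adjusted p of 0.05, the threshold of the limma test over all genes. With the knockdown in M4, MAGEA1 and MAGEA12 passed as higher and MAGEC2 and PRAME as lower, 4 of 9, where 23.3% of all 13680 genes passed (13.0% higher and 10.3% lower). The arrays of these 4 genes did not overlap, where those of 37.2% of all genes did not. The median change of the 9 was 0.10, against 0.02 over all genes. With Dox in LNCaP, MAGEA1, MAGEA3, MAGEA6 and MAGEA12 passed as higher and MAGEC1 as lower, 5 of 9, where 27.8% of all genes passed (10.9% higher and 17.0% lower). PRAME joined these 5 as lower without overlap, where 44.0% of all genes did not overlap. The median change was 0.41, against -0.08 over all genes. On the 22Rv1 arrays labelled Dox, 0 of 9 passed by limma, where 24.8% of all genes did (9.14% higher and 15.7% lower). The bright probes of MAGEA1 and MAGEA12 were higher and that of PRAME lower without overlap there, 3 of 9, where 38.9% of all genes did not overlap. The median change was 0.07, against -0.06 over all genes, and 1 of the 9 had an unadjusted p under 0.05 by limma. The count of 0 depended on the setting: MAGEA1 passed as higher without background correction, and PRAME passed as lower when detected probes were averaged. Between M4 shCtrl and 22Rv1 without Dox, MAGEC2, MAGEA3, MAGEA12 and PRAME passed as higher, 4 of 9, where 35.4% of all genes passed (14.7% higher and 20.7% lower). MAGEA1 joined these 4 as higher without overlap, and MAGEA10, below detection in both groups, as lower, where 49.8% of all genes did not overlap. The median change was 0.28, against -0.05 over all genes. Between LNCaP and 22Rv1 without Dox, MAGEC1, MAGEC2, MAGEA10 and PRAME passed as higher and MAGEA1 and MAGEA4 as lower, 6 of 9, where 50.3% of all genes passed (23.7% higher and 26.6% lower). MAGEA12 joined these 6 as higher without overlap, where 61.6% of all genes did not overlap. The median change was 0.22, against -0.02 over all genes. When the response of the 22Rv1 arrays labelled Dox was set against that of LNCaP, 1 of 9 passed as different, MAGEC1 (0.56 ± 0.20), where 18.8% of all genes passed (9.42% higher and 9.39% lower). No share is read as a result, since these contrasts were used to choose the genes. MAGEA3, MAGEA6 and MAGEA12 may also not be separate measurements, so these counts and medians can hold the same signal more than once. The 22Rv1 arrays without Dox serve in 3 of these comparisons, the M4 shCtrl arrays in 2 and the LNCaP arrays without Dox in 2.

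Background correction set the size of the changes. Without it MAGEC2 changed by -2.17 and PRAME by -0.70 with the knockdown, against -3.01 and -1.48 with it. MAGEC2 differed by 2.93 between M4 shCtrl and 22Rv1 and by 0.91 between LNCaP and 22Rv1, against 5.13 and 2.39 with correction, so the bounds above depend on it. Those differences passed either way. Scaling and single arrays decided some of the small calls. When arrays were scaled to a common median and not quantile normalized, MAGEA1 and MAGEA12 did not pass with Dox in LNCaP or with the knockdown, and MAGEA3 and MAGEA12 did not pass between M4 shCtrl and 22Rv1, while the changes of MAGEC2, PRAME, MAGEA10 and MAGEA4 that passed kept their side. With Dox in LNCaP, MAGEC1 (-0.44) and MAGEA1 (0.38) did not pass without LNCaP Dox replicate 1, nor without LNCaP replicate 3 (MAGEC1 -0.39, MAGEA1 0.38), and MAGEA1 (0.37) did not pass without LNCaP replicate 2. MAGEC2 was 0.64 higher with Dox in LNCaP, and passed, without LNCaP Dox replicate 1. Without background correction the MAGEC1 change was -0.14 and did not pass. With the knockdown, MAGEA12 did not pass without shGal4 replicate 1 or 2 or shCtrl replicate 1 or 3 (0.32 to 0.38). The LNCaP arrays with Dox also stood together on the main axis of variation within groups, with scores of 24.5 to 26.7, against -14.5 to -3.35 for LNCaP without Dox. With that axis taken out of the values, an alternative chosen after seeing the data, the LNCaP changes of MAGEA3, MAGEA6 and MAGEA12 were 0.40, 0.36 and 0.41.

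**Figure D3:**
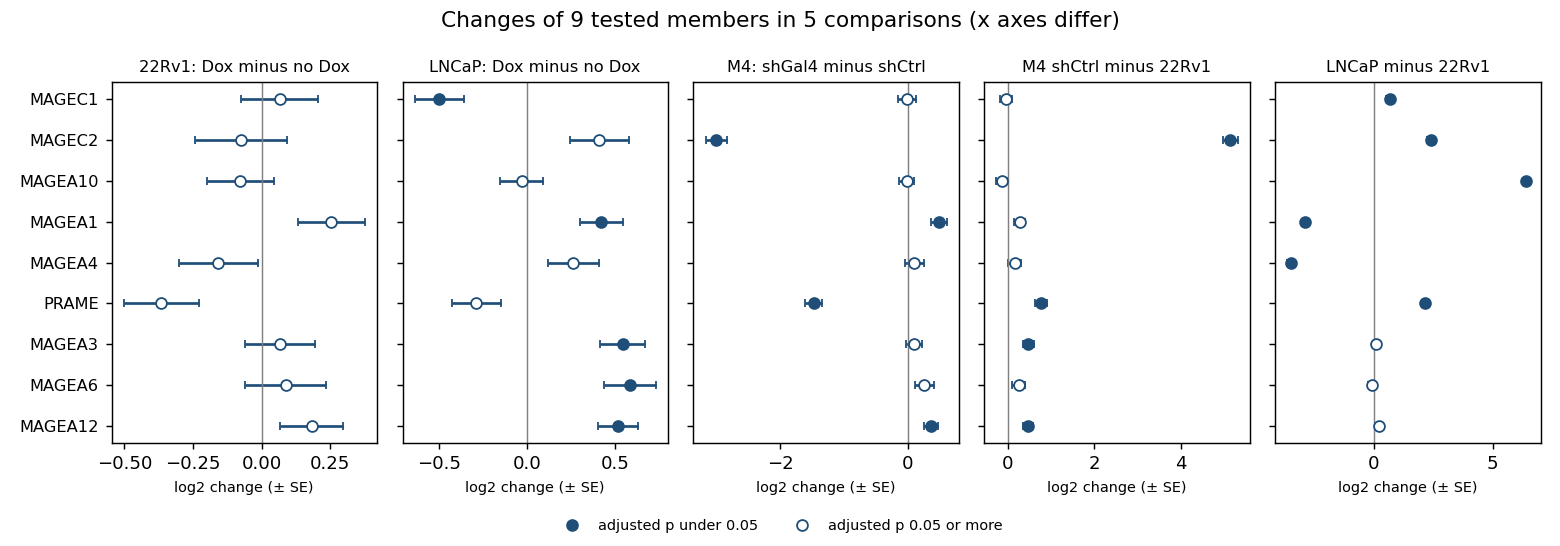
Log2 change (horizontal axes, which differ in scale) of the 9 tested genes in 5 comparisons, with SE bars from the limma fit, and with the Dox, shGal4, M4 or LNCaP group on top of each difference. Filled points passed an adjusted p of 0.05. MAGEC2 (-3.01) and PRAME (-1.48) stand apart in the M4 knockdown, and 0 of 9 are filled for 22Rv1 labelled Dox.

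Other MAGE genes of type I were mostly silent. Of 15 on the array 7 were detected on at least 3 arrays and tested. With the knockdown 0 rose and 1 fell, with Dox in LNCaP 1 rose and 0 fell, and on the 22Rv1 arrays labelled Dox none passed. In M4 shCtrl over 22Rv1 and in LNCaP over 22Rv1, 1 rose and 0 fell in each. Of all genes, 13.0% rose and 10.3% fell with the knockdown, and 10.9% rose and 17.0% fell with Dox in LNCaP. On the 22Rv1 arrays labelled Dox 9.14% of all genes rose and 15.7% fell. The shares were 14.7% and 20.7% in M4 shCtrl over 22Rv1, and 23.7% and 26.6% in LNCaP over 22Rv1. MAGEA2, a relative of MAGEA3, was higher with Dox in LNCaP on its brightest probe. That probe gave 6.24, 6.80 and 6.65 with Dox, against 5.43, 5.73 and 5.35 without (1.06 ± 0.24, adjusted p = 0.00275, limma). It was also higher in LNCaP than in 22Rv1, both without Dox (0.74 ± 0.24, adjusted p = 0.0121, limma). The MAGEA2 probes disagreed on Dox. Another probe, dim but detected on all of these arrays, averaged 5.02 in LNCaP with Dox and 5.14 without. In 22Rv1 without Dox it averaged 5.00. The remaining probe averaged 5.49 in LNCaP with Dox and 5.08 without, and was not detected in 22Rv1 without Dox. The MAGEA2 probes may read relatives of the gene. MAGEB18 was detected only in M4 shCtrl (4.87, 4.95 and 5.17), on 3 of 3 arrays, so it was at least 1.20-fold lower in M4 shGal4 and at least 1.24-fold above 22Rv1. It is the 1 gene counted above as falling with the knockdown and as rising in M4 shCtrl over 22Rv1. MAGEB18 passed the filter only through the M4 shCtrl arrays, so the filter itself required these differences and the counts are no support for them. MAGEA9B was detected on all 18 arrays and passed in no comparison. MAGEA11, MAGEA5P, MAGEB1 and MAGEB6 were at the detection limit and passed in none.

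The ubiquitously expressed MAGE genes of type II (the D, E, F, H and L families and necdin) were counted in the same way. Of 9 tested, 4 rose and 0 fell with the knockdown, led by necdin, NDN, a growth-restraining MAGE protein (1.74 ± 0.13), then MAGEF1 (0.72), MAGEE1 (0.58) and NSMCE3, a subunit of the SMC5/6 complex (0.50). Their median change was 0.32, against 0.02 over all genes. In M4 shCtrl over 22Rv1, 1 rose and 3 fell: MAGEH1 rose by 0.45, while MAGEE1 fell by 0.99, MAGEF1 by 0.95 and MAGED1 by 0.58. In LNCaP over 22Rv1, 4 rose and 0 fell, led by NDN (2.70 ± 0.13). In 22Rv1 labelled Dox 0 rose and 2 fell, MAGED2 by 0.83 and MAGED1 by 0.69. With Dox in LNCaP 0 rose and 1 fell, MAGED1 by 0.49. Of all genes, 13.0% rose and 10.3% fell with the knockdown, and 14.7% rose and 20.7% fell in M4 shCtrl over 22Rv1. The shares were 23.7% and 26.6% in LNCaP over 22Rv1, 9.14% and 15.7% in 22Rv1 labelled Dox, and 10.9% and 17.0% with Dox in LNCaP.

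Cancer-testis antigens of other families were counted from a list of 60 tested genes. With the knockdown 5 rose and 15 fell, where 13.0% of all genes rose and 10.3% fell, and their median change was -0.07, against 0.02 over all genes. VCX3A, VCX and VCX3B, near-identical X-linked genes, changed by -2.16, -2.11 and -2.01, and GAGE12G by -2.03 ± 0.20 (adjusted p = 1.47e-07). CTAG1B, which encodes NY-ESO-1, was also 0.70 ± 0.17 lower after the knockdown and 1.40 ± 0.17 higher in M4 shCtrl than in 22Rv1, on its brighter probe. The other CTAG1B probe was near detection and averaged 4.53 in M4 shGal4, against 4.49 in M4 shCtrl. CTAG1A, of the same family, moved less on its brightest probe, which averaged 10.34 in M4 shGal4, against 10.68 in M4 shCtrl. Whether CTAG1A and CTAG1B probes read each other's transcripts was not tested. GAGE genes separated LNCaP from 22Rv1. GAGE12F, GAGE2A, GAGE12J and GAGE12H were 6.69, 6.63, 6.58 and 6.56 higher in LNCaP on the log2 scale, while CTAG1B was not detected on the 6 LNCaP arrays, at least 7.18-fold lower in LNCaP than in 22Rv1 without Dox. The GAGE and VCX copies are so alike that their probes cannot be taken as separate measurements. Each copy is counted on its own among the 60, among the 15 that fell with the knockdown and in the other counts here. These counts therefore hold the families of copies more than once and are not counts of separate genes. Of the 60, 22 rose and 18 fell in LNCaP over 22Rv1, where 23.7% of all genes rose and 26.6% fell. In M4 shCtrl over 22Rv1, 21 rose and 9 fell, where 14.7% of all genes rose and 20.7% fell. In 22Rv1 labelled Dox 17 rose and 4 fell, where 9.14% of all genes rose and 15.7% fell. With Dox in LNCaP 5 rose and 6 fell, where 27.8% of all genes passed (10.9% higher and 17.0% lower). VCX3B, VCX3A and VCX changed by -1.49, -1.47 and -1.41 with Dox in LNCaP, and BRDT, a testis bromodomain protein, rose by 1.15 there. In 22Rv1 labelled Dox, TDRD1, a tudor protein of the piRNA pathway, rose by 1.60, VCX3B by 0.83, GAGE12F by 1.00, and NXF2, an RNA export factor, fell by 1.04. In M4 shCtrl over 22Rv1, NXF2 fell by 3.07, while CTAG1B rose by 1.40, TDRD1 by 1.16 and GAGE12J by 1.14.

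**Figure D4:**
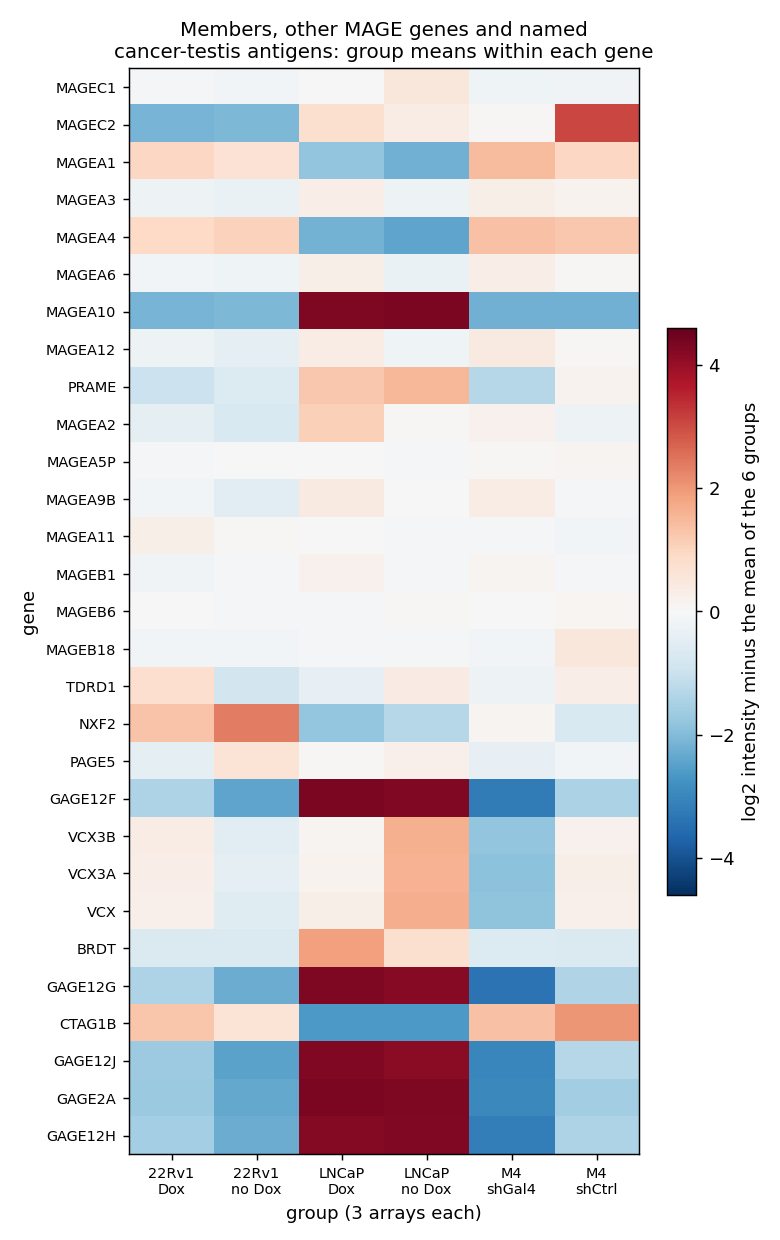
Group means of normalized log2 intensity minus the mean of the 6 groups (colour), for the 9 tested members, the 7 other MAGE genes of type I and the named cancer-testis antigens (rows) in 6 groups of 3 arrays (columns). Colours compare groups within a gene, not genes with each other. MAGEA10 and the GAGE genes are red in both LNCaP groups, and MAGEC2 is reddest in M4 shCtrl.

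Genes that act with these proteins, and genes listed under DNA methylation and heterochromatin, were counted from lists. Of 24 tested partners of MAGE and PRAME proteins, 0 rose and 2 fell with the knockdown: RBX1, the RING subunit of cullin ligases, by 0.49, and TRIM27, a RING ligase, by 0.43. With Dox in LNCaP 3 rose and 11 fell, with a median of -0.22, against -0.08 over all genes. USP7, a deubiquitinase, fell by 0.76, SKP2, an F-box protein, fell by 0.70, and RARA, the retinoic acid receptor, fell by 0.71, while LRR1, a CUL2 substrate receptor, rose by 0.71. In 22Rv1 labelled Dox 0 rose and 3 fell: TRIM28 by 0.52, EZH2 by 0.51 and PPP2R1A by 0.51. TRIM27 was 0.77 higher and RARA 1.02 lower in M4 shCtrl than in 22Rv1, where 3 rose and 4 fell. In LNCaP over 22Rv1, 5 rose and 5 fell, with EZH2 0.92 lower. Of all genes, 13.0% rose and 10.3% fell with the knockdown, and 10.9% rose and 17.0% fell with Dox in LNCaP. The shares were 9.14% and 15.7% in 22Rv1 labelled Dox, 14.7% and 20.7% in M4 shCtrl over 22Rv1, and 23.7% and 26.6% in LNCaP over 22Rv1.

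Of 35 tested genes of DNA methylation and heterochromatin, 4 rose and 3 fell with the knockdown. The list also holds ETS factors, SP1 and genes of DNA demethylation such as TDG, so its counts are not counts of silencing genes. ETS2, an ETS-family factor, was 1.04 ± 0.15 lower in M4 shGal4 than in M4 shCtrl. It averaged 5.80 in M4 shCtrl and 5.79 in 22Rv1 without Dox, and was 0.73 higher on the 22Rv1 arrays labelled Dox. In LNCaP without Dox ETS2 was not detected, at least 2.09-fold lower than in 22Rv1 without Dox. MPHOSPH8, a subunit of the HUSH silencing complex, rose by 0.70 with the knockdown. DNMT3B, a de novo DNA methyltransferase, rose by 0.50. ZBTB33 and TDG were the other genes of the list to fall, by 0.59 and 0.53. With Dox in LNCaP 3 rose and 14 fell, with a median of -0.17, against -0.08 over all genes: DNMT3B fell by 0.73, CBX5, heterochromatin protein 1 alpha, fell by 0.75, MBD4, a thymine glycosylase, fell by 0.85, and CBX3 rose by 0.91. In 22Rv1 labelled Dox 3 rose and 5 fell: MBD4 rose by 1.77 and CBX5 fell by 1.07. In LNCaP over 22Rv1 7 rose and 12 fell, SUV39H1, a histone H3 lysine methyltransferase, being 2.06 higher. In M4 shCtrl over 22Rv1 2 rose and 10 fell. Of all genes, 13.0% rose and 10.3% fell with the knockdown, and 10.9% rose and 17.0% fell with Dox in LNCaP. The shares were 9.14% and 15.7% in 22Rv1 labelled Dox, 23.7% and 26.6% in LNCaP over 22Rv1, and 14.7% and 20.7% in M4 shCtrl over 22Rv1. The changes with Dox in LNCaP share those arrays and their position on the axis described above, and its part in these counts was not tested.

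The genes whose levels over the 18 arrays were most like those of MAGEA10, MAGEC2 and PRAME, by Pearson r among 5779 genes whose group means span at least 1 log2, are given as a description, since arrays of 1 group are not independent of the line they come from. MAGEA10 was matched by VCY1B, CAPN13, ACKR3, CDH26 and RAB25 (r of 0.997 to 0.999). MAGEC2 was matched by GASK1B (0.97), GSTA1 (0.96), KCNG1 (0.95), PGC (0.93) and QSOX1 (0.93). GASK1B averaged 6.38 in M4 shGal4, 9.05 in M4 shCtrl and 4.73 in 22Rv1 without Dox. PRAME was matched by CHDH (0.98), MSN (0.97), SHPK (0.97), NRP1 (0.96) and NDRG2 (0.96).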

How the data were processed

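RNA of 18 samples of human prostate cancer lines was read on Illumina bead arrays. The deposited non-normalized table gives an intensity per probe and array with a detection p-value, per the file headers. The authors' deposited matrix holds log2 values that equal quantile-normalized log2 intensities within 0.01 but for 114 of 851454 values, with array medians of 6.80 to 6.81. It was used as an alternative. Which software made it is not stated by the headers or labels.

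Intensities were corrected from the detection p-values and quantile normalized with neqc (limma 3.58.1, offset 16, R 4.3.3). Probes with a detection p under 0.05 on at least 3 arrays passed, and the brightest named probe stood for each of 13680 genes. Of 47303 probes, 30103 had 1 gene in the platform annotation, 8 several and 17192 none. A single limma model with 6 group means (12 residual and 8.73 prior degrees of freedom) gave each comparison and the difference between the Dox responses, adjusted by Benjamini-Hochberg over all genes. A fold against a group with no detected array is a bound, written "at least".

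The members and lists were chosen with earlier results of these data known. Non-member genes were named from a rule: LGALS4, every detected MAGE gene of type I, from each other list up to 4 genes per comparison with the largest called change and no overlap of arrays, and the 5 genes most like MAGEA10, MAGEC2 and PRAME. Some genes that met the rule are not given, so the named genes of a list are examples. A list of genes of MHC class I presentation was also counted and is not described. The same genes in other comparisons, CTAG1A, further probes of MAGEA2 and CTAG1B, and the chromosome neighbours were named after their values were seen. Same-numbered replicates did not deviate together (r of -0.105 to 0.111 over 15 pairs, 1 over 0.1), so no block was used. The procedure was tested on simulated data with independent noise for each gene and array. Variation shared between genes, such as the main within-group axis, was not simulated, so that test does not cover it.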

Additional observations from a re-analysis of the deposited data

Results flagged for a closer look

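For 17 genes of the text the response to Dox differed between 22Rv1 and LNCaP (limma, adjusted over 13680 genes, of which 18.8% passed). The difference is the response on the 22Rv1 arrays labelled Dox minus the response in LNCaP, on the log2 scale. Many of the 17 were named for a large change in 1 of the 2 Dox comparisons, from which this difference is built. Their adjusted p-values are therefore a description and no independent test, and the 17 are not read against the 18.8%. LGALS4 was not raised on the 22Rv1 arrays labelled Dox, so each difference compares the labels. Of the members, MAGEC1 alone passed: its responses were 0.07 in 22Rv1 and -0.50 in LNCaP, a difference of 0.56 ± 0.20 (SE). It lay just inside the threshold, its levels were near the detection limit, and it did not pass under many alternatives, among them median scaling and leaving out any 22Rv1 array without Dox. Without background correction MAGEA3 and MAGEA12 passed in its place, MAGEA3 also with an offset of 50. With detected probes averaged MAGEA6 and MAGEA12 passed beside it. MAGEC2 passed without LNCaP Dox replicate 1 and, with MAGEA3, under weights per array. LGALS4 itself differed by -1.98 ± 0.30 (adjusted p = 0.000111).

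Among the other cancer-testis antigens, VCX3B, VCX3A and VCX rose in 22Rv1 and fell in LNCaP, with differences of 2.32, 2.24 and 2.22 (adjusted p of 9.55e-06, 6.46e-06 and 4.11e-06). TDRD1 did likewise (1.60 in 22Rv1 and -0.75 in LNCaP, a difference of 2.35, adjusted p = 0.000151). GAGE12F and GAGE12H differed by 0.94 and 0.78 (adjusted p of 0.0272 and 0.0445), and BRDT, not detected in 22Rv1, by -1.14 (adjusted p = 0.000354). The VCX copies and the GAGE copies each count as about 1 measurement, since their probes may read each other's transcripts. The type II gene MAGED2 differed by -1.02 (adjusted p = 0.00161).

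Among the partners, LRR1 differed by -1.01, RARA by 0.63 and TRIM27 by -0.72 (adjusted p of 0.0107, 0.0388 and 0.0128). Among the chromatin genes, MBD4 differed by 2.62, ETS2 by 0.81, CBX3 by -1.13 and DNMT3B by 0.84 (adjusted p of 0.000217, 0.00989, 0.00553 and 0.0238).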

How the results depend on the processing

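Each of 966 changes of the members was recomputed under another setting. None of those that passed the threshold changed sign, and 107 values moved by more than the spread between arrays. The changes of MAGEC2 and PRAME with the knockdown, of MAGEC2 and PRAME in M4 over 22Rv1, of MAGEC2, MAGEA10, PRAME, MAGEA1 and MAGEA4 in LNCaP over 22Rv1, and of MAGEA3 and MAGEA6 with Dox in LNCaP passed in every setting run. Without background correction, or with other probes averaged in, many changes shrank. Over the settings that kept all arrays, PRAME ranged from -1.56 to -0.70 with the knockdown, MAGEC2 from 0.91 to 2.39 in LNCaP over 22Rv1, MAGEC2 from -3.18 to -2.17 with the knockdown and from 2.93 to 5.23 in M4 over 22Rv1, and MAGEA10 from 3.36 to 6.42 in LNCaP over 22Rv1. MAGEC1 could not be tested with detection p under 0.01. Calls were also gained. Without background correction, MAGEA1 passed in 22Rv1 labelled Dox and in M4 over 22Rv1, PRAME with Dox in LNCaP, and MAGEA12 in LNCaP over 22Rv1. With detected probes averaged, PRAME passed in 22Rv1 labelled Dox, MAGEA4 and MAGEA10 with Dox in LNCaP, MAGEA1 and MAGEA6 in M4 over 22Rv1, and MAGEA12 in LNCaP over 22Rv1. MAGEA6 passed in M4 over 22Rv1 without M4 shCtrl replicate 1, and with the knockdown under weights per array or after removal of the main within-group axis.

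The number of genes past the threshold was 3394 in 22Rv1 labelled Dox, 3809 with Dox in LNCaP, 3193 with the knockdown, 4849 in M4 over 22Rv1, 6887 in LNCaP over 22Rv1 and 2572 for the difference between Dox responses. Median scaling gave 2212 with Dox in LNCaP, 1927 with the knockdown and 1707 for the difference. Weights per array, whose estimation did not fully converge, gave 6582 in 22Rv1 labelled Dox, 4921 with the knockdown and 4673 for the difference. Taking out the within-group axis, chosen after seeing the data, gave 2531 with Dox in LNCaP. Leaving out 1 array gave 2468 to 4246, 2542 to 3126, 2307 to 2869, 3918 to 4575, 6144 to 6541 and 1961 to 3171 in that order of comparisons. The cause of these shifts was not tested. Under median scaling the share of calls that were higher was 25.3% in 22Rv1 labelled Dox (36.8% with quantile normalization), 34.9% with the knockdown (55.7%), 34.2% in LNCaP over 22Rv1 (47.1%) and 38.5% for the difference (50.1%). It was 48.5% with Dox in LNCaP (39.1%). It moved the median of all genes in LNCaP over 22Rv1 to -0.12, against -0.02.

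With the replicate number as a block the counts were 3158, 3542, 2981, 4635, 6718 and 2306, and no call of a member changed. The numbers do not pair the arrays. Values of MAGEC1, and of the dim MAGEC2 probe in M4 shGal4, are near or below the detection limit, so their folds are bounds.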
